A study of Mus musculus with 13 samples.

Results

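The 40 genes described here are interferon response genes of the mouse, taken by symbol from a gene-level RNA-seq table of 21073 genes, and all 40 were found in it. They were followed through 13 libraries of a study of STAT5 in experimental autoimmune encephalomyelitis (EAE), a mouse model of multiple sclerosis in which immunization with a myelin peptide (MOG35-55) leads T cells and monocytes into the spinal cord. The study used STAT5 tetramer-deficient double knock-in (DKI) mice, whose STAT5A and STAT5B proteins still form dimers but not tetramers, and wild-type (WT) mice, all on C57BL/6J. It asked what STAT5 tetramers do in monocytes and how the chemokine CCL17, a ligand of the receptor CCR4, bears on pathogenic Th17 cells.

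The 3 myeloid libraries all came from DKI mice immunized with the peptide in complete Freund's adjuvant and given pertussis toxin, sorted on day 14: bone marrow monocytes, spinal cord monocytes and, also from the cord, antigen-presenting cells derived from monocytes (APCs), with 1 library each. The 10 Th17 libraries came from mice immunized in the same adjuvant without pertussis toxin. Cells of their spleen and lymph nodes, taken on day 14, were expanded under Th17 conditions in the presence of the peptide, and CD4+ T cells were sorted 3 days later. These libraries comprise 2 from WT, 2 from DKI, and a further set from DKI of 3 expanded without CCL17 and 3 expanded with it. The labels do not say whether the libraries of a group came from separate mice or cultures, so p-values measure only the spread between these libraries, and no WT myeloid library was analysed here.

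Type I interferons bind the receptor IFNAR1/IFNAR2, whose kinases JAK1 and TYK2 activate the complex ISGF3, which contains STAT2 and IRF9 and binds interferon-stimulated response elements (ISREs) in the promoters of antiviral genes. Interferon gamma, the product of activated T cells, acts through IFNGR1/IFNGR2 on GAS elements, and induces the guanylate-binding proteins and the chemokines CXCL9 and CXCL10 most strongly. In EAE, interferon gamma made by T cells and interferon beta made by myeloid cells are both known to shape the activity of cord monocytes.

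The promoter letters of 8 members, chosen among those that hold an ISRE match, are shown first, since the ISRE is the element that defines the response. Members without a match in their promoter window, among them Irf7, Irf9, Rnf213, Cmpk2 and Oasl1, are not shown. They come from the RefSeq promoter table of build GRCm38.p6. Each line is a stretch of 60 bases upstream of the transcription start, 5′ to 3′ on the gene's own strand, with every match to the ISRE core (GAAA, any 2 bases, GAAA) on either strand in capitals. The stretches lie at chr4:156200850-156200909 on the minus strand (Isg15), chr19:34640779-34640838 plus (Ifit1), chr19:34583382-34583441 plus (Ifit3), chr5:120777700-120777759 minus (Oas3), chr12:26456538-26456597 minus (Rsad2), chr8:71537562-71537621 minus (Bst2), chr3:142620579-142620638 plus (Gbp2) and chr3:142496744-142496803 plus (Gbp5).
Isg15: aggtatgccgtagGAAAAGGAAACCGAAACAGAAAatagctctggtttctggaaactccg
Ifit1: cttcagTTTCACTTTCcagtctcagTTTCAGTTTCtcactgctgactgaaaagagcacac
Ifit3: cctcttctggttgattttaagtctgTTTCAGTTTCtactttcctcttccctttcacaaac
Oas3: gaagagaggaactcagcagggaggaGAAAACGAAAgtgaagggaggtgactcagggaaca
Rsad2: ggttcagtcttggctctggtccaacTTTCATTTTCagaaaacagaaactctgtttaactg
Bst2: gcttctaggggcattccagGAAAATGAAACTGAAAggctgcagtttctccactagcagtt
Gbp2: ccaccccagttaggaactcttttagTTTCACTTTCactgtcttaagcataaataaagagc
Gbp5: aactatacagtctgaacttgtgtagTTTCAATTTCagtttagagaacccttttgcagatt

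In these stretches Isg15, Ifit1 and Bst2 held overlapping or repeated copies of the core, and Ifit3, Oas3, Rsad2, Gbp2 and Gbp5 held 1. Of the 40 genes, 31 had an entry in the promoter table, and 15 of these (48.4%) held the core within the 300 bases from 250 before to 50 after a start. Of all 27025 genes of the table, 1079 (3.99%) held it. The 15 were Bst2, Ddx58, Eif2ak2, Gbp2, Gbp3, Gbp5, Ifih1, Ifit1, Ifit3, Ifitm3, Isg15, Oas1a, Oas3, Rsad2 and Trim30a. The GAS core (TTC, any 3 bases, GAA, sought on both strands) was held by 9 of the 31 (29.0%), against 9.55% of all genes, and in 2 of them, Bst2 and Ifitm3, the 2 motifs overlapped. The median difference between cord and marrow monocytes, described below, was 1.54 on the log2 scale in the 15 with the core and 1.07 in the 16 without it, with 8 genes at least 2-fold higher in each. For the difference between the 2 WT Th17 libraries, also described below, the medians lay the other way, at 1.63 with the core and 1.70 without it, with 11 genes at 1 or more in each. Such matches describe letters in a window and say nothing of binding.

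Levels are given on the deposited scale, log2(RPKM + 1), where RPKM is the read count scaled to gene length and library size, so levels can be compared between genes. The depth estimated from the table ranged from 12600000 to 31800000 assigned reads per library. The libraries carried the markers of their labels: 8 of 8 T cell markers had an RPKM of at least 1 in every Th17 library, with summed RPKM from 1951 to 2657, and 10 of 10 monocyte markers did so in the 3 myeloid libraries, with sums from 16040 to 23150. Both cord libraries also held T cell markers, 8 of 8 at an RPKM of at least 1, with sums of 24.5 in monocytes and 27.2 in APCs, against 1 of 8 and a sum of 1.33 in marrow, where Cd3e, Cd3g, Cd4 and Lck were at 0. Microglial markers, none of them at 0, summed to 195.8, 525.2 and 1316 in marrow monocytes, cord monocytes and cord APCs (6, 9 and 10 of 10 at an RPKM of at least 1), and neutrophil markers to 7019, 797.5 and 1084. Their part in the differences between these libraries was not tested. The second set of DKI Th17 libraries held more myeloid RNA than the first, with summed monocyte markers of 693.6 to 1083 in its 6 libraries against 62.1 to 171.9 in the 4 WT and DKI libraries.

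**Figure D1:**
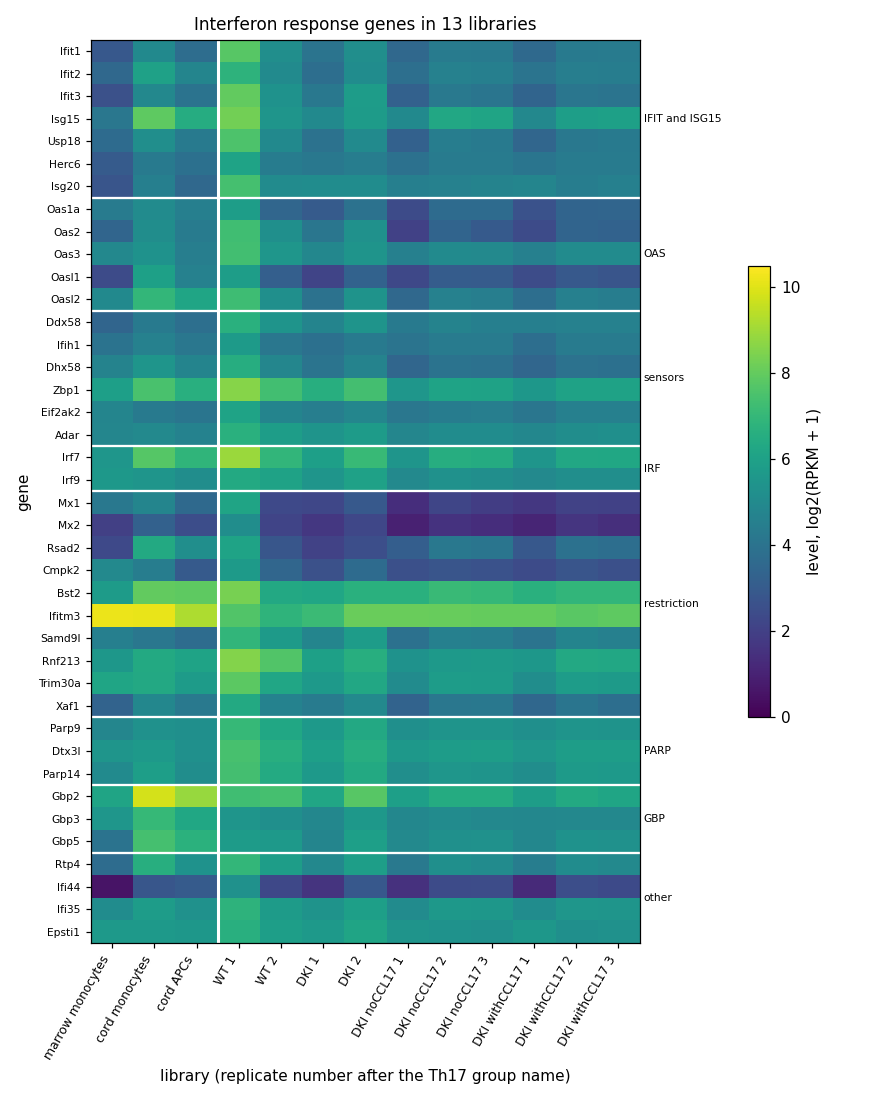
Level of each of the 40 genes, log2(RPKM + 1) by color, in the 13 libraries (columns), with genes grouped by role. WT replicate 1 is the brightest Th17 column in 36 of the 40 genes, and cord monocytes are the brightest myeloid column in 33.

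The first question was how these genes differ between monocytes of the marrow and of the inflamed cord. Interferon response genes stood higher in the cord: 21 of the 40 were at least 2-fold higher in cord than in marrow monocytes on the RPKM + 1 scale, and 0 were 2-fold lower. Of the 10475 genes that reached an RPKM of 1 in one or both libraries, 12.2% stood 2-fold higher and 17.0% 2-fold lower. The median difference of the members was 1.29, against -0.32 for all genes, and 6 of the 40 were below 0, as were 66.5% of genes. At 4-fold, 12 members were higher (5.37% of genes) and 0 lower (4.11%). All 40 members passed the same filter on low values. With 1 library per group there is no replicate check and no test. In bulk samples more cells of a type and more RNA per cell cannot be told apart.

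Rsad2, which encodes viperin, an enzyme that makes a chain-terminating nucleotide, stood at 2.33, 6.38 and 5.2 in marrow monocytes, cord monocytes and cord APCs, in that order, which is used for every triplet of levels below. Its RPKM was 20.5 times higher in cord than in marrow monocytes (95% Clopper-Pearson interval 18.7 to 22.6, from estimated reads). Such intervals cover counting error between these libraries only. Isg15, a ubiquitin-like protein that is conjugated to other proteins, stood at 4.15, 7.91 and 6.51, a 14.3-fold difference between the monocyte libraries (12.9 to 15.9). Oasl1, a relative of the oligoadenylate synthetases that represses translation of Irf7 mRNA, stood at 2.4, 5.98 and 4.6. In each of these 3 genes the cord APCs lay between the monocyte libraries.

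The guanylate-binding proteins, GTPases that attack the vacuoles of intracellular pathogens, were the group with the largest median difference, 3.40, and all 3 passed 2-fold in cord monocytes. Gbp2 stood at 6.15, 9.83 and 8.87, with a ratio of RPKM between cord and marrow monocytes whose interval ran from 12.7 to 13.4. Gbp5, which also promotes inflammasome activity, stood at 4.0, 7.4 and 6.73, 11.2-fold higher in cord monocytes. Gbp3 stood at 5.5, 7.04 and 6.27. Gbp2 reached the second highest level of any member in cord monocytes, after Ifitm3.

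The 7 genes of the IFIT and ISG15 group were all at least 2-fold higher in cord monocytes, with a median difference of 2.11. IFIT proteins bind viral RNA that lacks the host's cap methylation. Ifit1 stood at 2.9, 5.0 and 3.74 and Ifit2 at 3.53, 6.0 and 4.78. Ifit3 stood at 2.59, 4.9 and 4.01, but it has a near-identical copy, Ifit3b, and reads of the pair may have been divided between them. Usp18, the protease that removes ISG15 and restrains the interferon receptor, stood at 3.68, 5.19 and 4.33. Herc6, an ISG15 ligase of the mouse, and Isg20, an exonuclease, differed by 1.30 and 1.77. Every gene of this group had its highest level in cord monocytes.

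Of the 5 genes of the oligoadenylate synthetase (OAS) group, which includes Oasl1, 3 were at least 2-fold higher in cord monocytes. Oas2 stood at 3.42, 5.16 and 4.37 and Oasl2 at 4.96, 6.95 and 6.17, while Oas3 stood at 4.9, 5.35 and 4.47, which is highest in cord monocytes but lower in APCs than in marrow. Oas1a differed by 0.67, and reads may be shared with its close copy Oas1g.

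The sensors of nucleic acid differed less. Zbp1, which senses Z-form nucleic acid and can start necroptosis, was the 1 gene of 6 at or above 2-fold, at 5.93, 7.48 and 6.63. Ddx58, the gene of RIG-I, stood at 3.42, 4.33 and 3.82, just below 2-fold. Dhx58, its regulator LGP2, stood at 4.7, 5.46 and 4.73, and Ifih1, the gene of MDA5, was 0.62 higher in cord monocytes. Adar, which edits double-stranded RNA and prevents its sensing, stood at 4.82, 4.93 and 4.66, nearly level. Eif2ak2, the kinase PKR, was lower in the cord, with a difference of -0.45. The median of the 6 sensors was 0.69.

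The pair of interferon regulatory factors parted. Irf7, the factor that amplifies interferon alpha production, stood at 5.53, 7.72 and 6.89, 4.62-fold higher in cord than in marrow monocytes (4.44 to 4.79). Irf9, the DNA-binding subunit of ISGF3, stood at 5.61, 5.48 and 5.14, slightly lower in the cord. Its partner Stat2 was higher there, at 4.49, 5.81 and 5.35.

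Restriction factors were mixed, with 4 of 10 at least 2-fold higher. Bst2, or tetherin, which holds budding virions on the cell surface, stood at 5.78, 7.97 and 7.89, level between the cord libraries and 4.64-fold higher in cord than in marrow monocytes. Ifitm3, which blocks the fusion of viruses in endosomes, was the most abundant member in each of the myeloid libraries, at 10.21, 10.15 and 9.2. Cmpk2, a mitochondrial nucleotide kinase that neighbours Rsad2 in the genome, went the other way from it at 4.94, 4.44 and 2.98, and Rnf213 stood at 5.56, 6.4 and 6.1. Mx1 and Mx2, dynamin-like GTPases, were 0.57 and 1.28 higher in cord monocytes. Mx1 is known to be nonfunctional in C57BL/6 mice, so its level marks the response and not its activity. The differences of Xaf1, Trim30a and Samd9l between cord and marrow monocytes were 1.49, 0.17 and -0.35.

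The PARP9 group, which modifies proteins at sites of interferon signalling, was below 2-fold in 3 of 3 genes: Parp9 stood at 4.83, 5.33 and 5.22, Dtx3l at 5.46, 5.64 and 5.27 and Parp14 at 5.0, 5.89 and 5.14. Among the remaining genes, Rtp4 stood at 3.72, 6.59 and 5.35 and Ifi44 at 0.56, 2.79 and 3.0, the latter from an estimated 44 reads in the marrow. Ifi35 and Epsti1 differed by 0.69 and -0.03.

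The 6 genes below 0 in cord against marrow monocytes were Cmpk2, Eif2ak2, Samd9l, Irf9, Ifitm3 and Epsti1. When each library was centred on its median gene, all differences shifted by 0.30, Irf9, Ifitm3 and Epsti1 changed sign, and 25 members were at least 2-fold higher. Centring shifted the differences between APCs and marrow monocytes by 0.21.

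**Figure D2:**
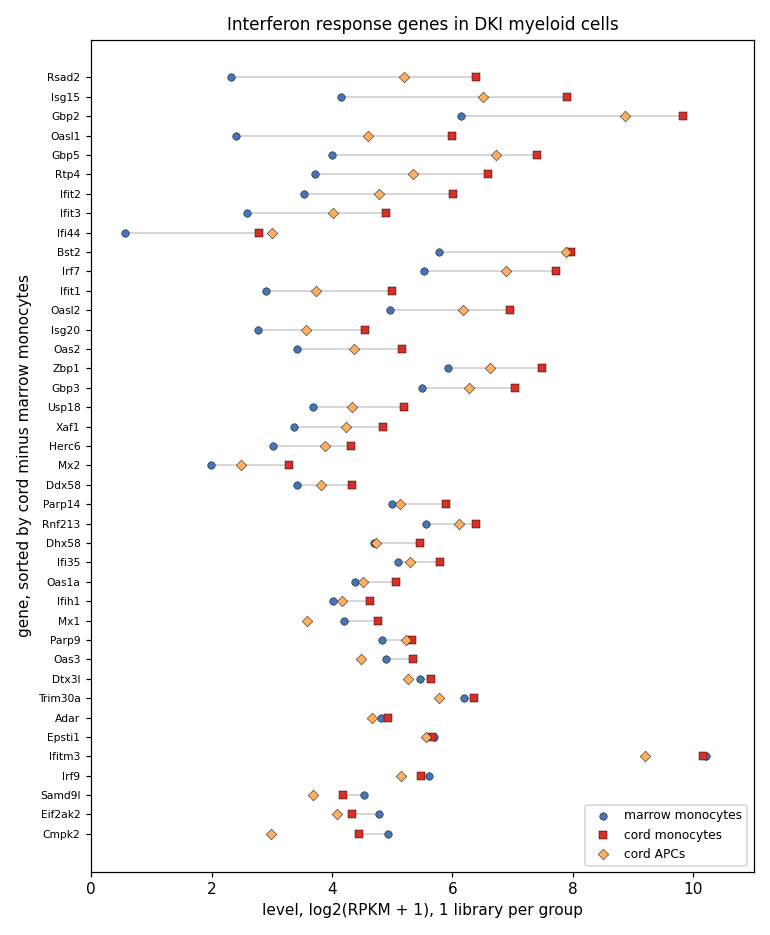
Level of each gene, log2(RPKM + 1), in marrow monocytes, cord monocytes and cord APCs of DKI mice, 1 library each, sorted by the difference between cord and marrow monocytes. Cord APCs lie below cord monocytes in 39 of the 40 genes, Ifi44 being the exception.

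The second question was how monocyte-derived APCs of the cord differ from the monocytes of the same organ. The set stood lower in the APCs: 39 of the 40 genes were below 0 (39.6% of genes), the median difference was -0.76 against 0.07 for all genes, and 8 were at least 2-fold lower. In this comparison 0.816% of 10300 genes were 2-fold lower, and 1.71% were 2-fold higher, among them 0 members. Conventional dendritic cell markers were higher in APCs in 7 of the 7 tested and at least 2-fold higher in 5. They summed to an RPKM of 10.46, 38.31 and 151.5 in marrow monocytes, cord monocytes and APCs, with 1, 5 and 7 of 8 at an RPKM of at least 1 and none at 0, and their part in the result was not tested. No member was 4-fold lower (0.0583% of genes). This comparison shares the cord monocyte library with the one above. Cmpk2 was the furthest apart, 3.00-fold lower in RPKM in APCs (2.72 to 3.31). Isg15, Oasl1, Ifit1, Rtp4, Ifit2, Rsad2 and Mx1 were the other 7, with differences from -1.39 for Isg15 to -1.18 for Mx1. Ifi44 was the single gene above 0, at 0.21, and Bst2, at -0.09, was the nearest to level of the rest.

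By role, the median difference between APCs and cord monocytes was -0.98 in the IFIT and ISG15 group, -0.79 in the OAS group, -0.77 in the GBP group, -0.70 in the restriction factors, -0.49 in the sensors and -0.37 in the PARP9 group. The order of the 3 libraries was the same in most genes: cord monocytes above APCs above marrow monocytes in 28 of the 40, an order held by 13.7% of 10720 genes. Cord monocytes had the highest level in 33 members (17.0% of genes), marrow monocytes in 6 (58.8%) and APCs in 1 (24.2%). Against marrow monocytes, 12 members were at least 2-fold higher in APCs (13.5% of 10660 genes), a share of the members above that background, and 2 were lower (14.9%), Cmpk2 at -1.95 and Ifitm3 at -1.01. At 4-fold, 7 were higher (5.85%) and 0 lower (4.12%). The 5 largest differences from marrow were those of Rsad2 (2.87), Gbp5 (2.73), Gbp2 (2.72), Ifi44 (2.44) and Isg15 (2.37).

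The pathway above and around these genes was read from other lists, 97 genes in all, of which 77 passed the filter between the monocyte libraries. Of these, 26 were at least 2-fold higher in cord than in marrow monocytes and 2 were lower, Ifngr1 and Tyk2. Of 21 interferon genes, 12 were at 0 in all 13 libraries. Ifnb1, the interferon beta gene, stood at 0.0, 1.38 and 1.73 and Ifng at 0.0, 2.34 and 2.61, so neither was read in the marrow and both were low in the cord. The summed T cell markers given above moved with Ifng, and their part in it was not tested. Plasmacytoid dendritic cell markers, a cell type known for interferon alpha, summed to an RPKM of 9.57 in marrow, 24.2 in cord monocytes and 48.5 in APCs, with 1, 4 and 4 of 8 at an RPKM of at least 1. Siglech, Pacsin1, Klk1 and Ly6d were at 0 in marrow and Klk1 in APCs. Siglech rose most, at 0.0, 3.53 and 5.0, and Cox6a2, Spib and Pacsin1 rose by less in the same order. The microglial sums given above, 195.8, 525.2 and 1316, rose in that order too. Which cells the Siglech reads came from was not tested. Tcf4 was level at 3.37, 3.33 and 3.48, Ccr9 stayed low at 0.12, 0.36 and 0.24, and Ly6d stood at 0.0, 1.45 and 0.61. The list therefore did not rise as a whole. The part of these markers in the member levels was not tested.

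Receptor levels differed less than those of the responding genes. Ifnar1 stood at 4.72, 5.42 and 5.28 and Ifnar2 at 5.98, 6.08 and 6.0, while Ifngr1 stood at 7.78, 6.59 and 6.78 and was highest in the marrow. Of 8 receptor and kinase genes tested, Jak2 was the 1 at least 2-fold higher in cord monocytes. Among the transcription factors of the pathway, Stat2 and Irf1 were at least 2-fold higher, with Irf1 at 5.41, 8.12 and 7.52. The feedback inhibitors Socs1 and Socs3, which block JAK kinases, stood at 1.29, 5.63 and 4.58 and 4.3, 8.97 and 8.7, the 2 genes of 7 in their list past 2-fold. Socs1 was at least 2-fold lower in APCs than in cord monocytes, as were 9 of 40 further interferon-stimulated genes.

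Among those 40 further genes, 17 were at least 2-fold higher in cord than in marrow monocytes, with a median difference of 0.76. The chemokine genes Cxcl9 and Cxcl10, which draw CXCR3-bearing T cells, had the largest differences, at 0.87, 8.42 and 8.06 and 2.96, 9.69 and 8.43. Gbp4 and Gbp6 followed, with differences of 4.36 and 3.67. Between the cord libraries the largest differences in that list were those of Slfn4 (-2.53), Ms4a4c (-1.64), Ifit1bl1 (-1.51) and Slfn1 (-1.41), all lower in APCs.

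In the Th17 libraries the first comparison asked what loss of STAT5 tetramers does to T cells expanded from immunized mice. With limma and no block for the replicate number, 0 of 11078 genes passed an adjusted p of 0.05 (0.0%). Thus 0 of the 40 members were called in DKI against WT. The fit with such a block is given in the last section. At an unadjusted p of 0.05, 914 genes were higher (8.25%) and 965 lower (8.71%), and 0 members were higher and 16 lower. The fitted differences of the members leaned one way: 39 of the 40 were below 0 (45.3% of genes), with a median of -1.05 against 0.03 for all genes, and 22 were at least 2-fold lower, against 1.10% of genes. The libraries of the 2 groups overlapped in 31 members and lay wholly below WT in DKI in 9, as did 20.1% of genes. In 0 members did DKI lie wholly above WT (19.9% of genes).

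The single libraries of each group lay far apart. WT replicate 1 was the highest of all 10 Th17 libraries in 36 of the 40 genes, which 15.8% of 11789 genes showed, with Gbp2, Gbp3, Gbp5 and Ifitm3 as the exceptions. The median level of the 40 genes was 6.85 in WT replicate 1 and 5.41 in WT replicate 2, against 4.78 and 5.52 in the DKI replicates. WT replicate 2 was below DKI replicate 2 in 31 members (50.7% of genes). Both groups were split, and the 2 libraries in the middle belonged to different genotypes. Without WT replicate 1 the median difference of the members was -0.34 and 0 were called, and without WT replicate 2 it was -1.90 and 15 were called (123 genes in all). Without DKI replicate 2, 1 member and 580 genes were called, and without DKI replicate 1, 0 members and 4 genes.

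**Figure D3:**
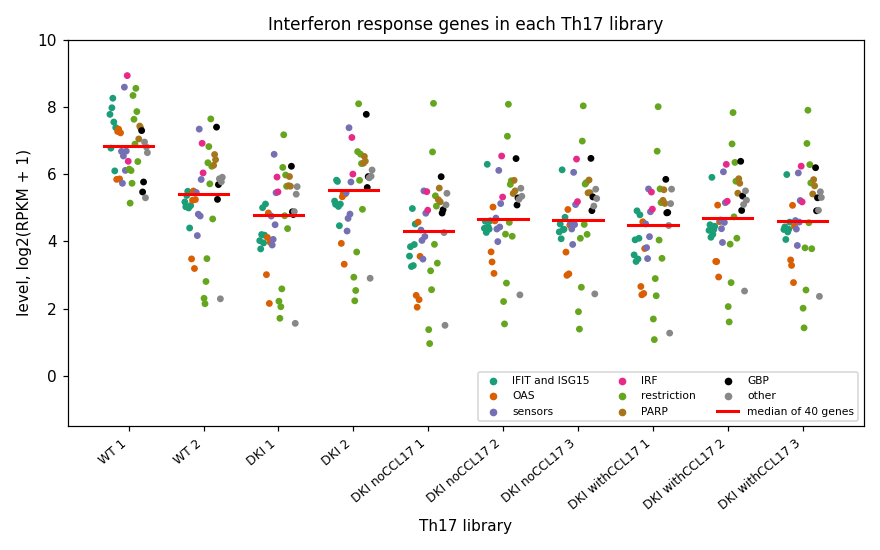
Level, log2(RPKM + 1), of the 40 genes in each of the 10 Th17 libraries, each point a gene colored by role, with the median as a bar. WT replicate 1 has a median of 6.85, and the other 9 libraries lie between 4.3 and 5.52.

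The levels below are in the order WT replicate 1, WT replicate 2, DKI replicate 1 and DKI replicate 2. Isg15 stood at 8.26, 5.49, 5.0 and 5.78, Ifit1 at 7.78, 5.17, 4.02 and 5.2 and Usp18 at 7.55, 4.99, 3.95 and 5.04. In these 3 genes WT replicate 1 stood apart from the other 3 libraries, and WT replicate 2 lay between the DKI replicates. Their fitted differences were -1.48 (SE 0.83), -1.87 (SE 0.75) and -1.78 (SE 0.77), with limma adjusted p of 0.381, 0.267 and 0.291. Rsad2 showed the widest range of these genes, at 6.11, 2.8, 2.05 and 2.54, a difference of -2.16 (SE 0.90, limma adjusted p = 0.278), with both DKI libraries below both WT libraries.

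Rnf213, a large ubiquitin ligase with antimicrobial activity that coats lipid droplets and bacteria, had the smallest p of the members. It stood at 8.55, 7.64, 5.97 and 6.59, so that both WT libraries lay above both DKI libraries by more than 1. The difference was -1.81 (SE 0.36), with a limma adjusted p of 0.123. It was the one member for which WT replicate 2 exceeded DKI replicate 2 by 1 or more. Without WT replicate 2 the adjusted p was 0.0400 and without DKI replicate 2 it was 0.0332, while without WT replicate 1 or DKI replicate 1 it was 0.467 or 0.156.

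Dtx3l and Parp9, the ligase and partner that form 1 complex, stood at 7.43, 6.58, 5.93 and 6.53 and 7.05, 6.26, 5.66 and 6.32. Parp14 stood at 7.37, 6.43, 5.64 and 6.38. The differences of Dtx3l and Parp9 were -0.78 (limma adjusted p = 0.228) and -0.66 (limma adjusted p = 0.267), and the Dtx3l libraries did not overlap between genotypes, though DKI replicate 2 was within 0.06 of WT replicate 2. The sensors divided 3 to 3 in the order of WT replicate 2 and DKI replicate 2. Ddx58 stood at 6.68, 5.45, 4.75 and 5.44, Dhx58 at 6.54, 4.81, 4.06 and 4.68 and Adar at 6.69, 5.84, 5.45 and 5.77, with DKI replicate 2 just below WT replicate 2 and limma adjusted p of 0.237, 0.238 and 0.252. In Zbp1, at 8.59, 7.34, 6.59 and 7.38, Ifih1, at 5.73, 4.17, 3.89 and 4.31, and Eif2ak2, at 6.11, 4.75, 4.49 and 4.81, DKI replicate 2 lay above WT replicate 2, as it did in Parp9.

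Oas3 stood at 7.34, 5.5, 4.84 and 5.43, Oas2 at 7.27, 5.22, 4.12 and 5.33 and Oasl1 at 5.86, 3.19, 2.15 and 3.32. The groups overlapped in Oas2 and Oasl1 and were apart in Oas3 by less than 0.1. Irf7 stood at 8.93, 6.92, 5.91 and 7.09 and Irf9 at 6.38, 6.04, 5.47 and 6.0. Irf7 had its highest Th17 value in WT replicate 1 and overlapped between genotypes, and Irf9 varied least of the pair. Bst2 stood at 8.34, 6.34, 6.2 and 6.67, Cmpk2 at 5.73, 3.48, 2.59 and 3.68, Rtp4 at 6.95, 5.86, 4.89 and 5.89 and Ifi44 at 5.29, 2.29, 1.56 and 2.9, and in all 4 WT replicate 2 was below DKI replicate 2.

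Ifitm3 was the 1 member above 0 in DKI against WT, at 7.63, 6.82, 7.17 and 8.09, a difference of 0.41 (SE 0.31, limma adjusted p = 0.514). The guanylate-binding proteins did not share the height of WT replicate 1. Gbp2 stood at 7.29, 7.4, 6.23 and 7.78, Gbp3 at 5.47, 5.25, 4.88 and 5.6 and Gbp5 at 5.77, 5.69, 4.8 and 5.92, with the highest value of the 4 in DKI replicate 2 and the lowest in DKI replicate 1 for each gene.

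The gap between replicates was put beside the gap between genotypes. WT replicate 1 exceeded WT replicate 2 by a median of 1.70 over the members, and by 1 or more in 29 of the 40, which 1.7% of genes did. The gap ran from -0.10 in Gbp2 to 3.84 in Mx1. Its median was 2.56 in the IFIT and ISG15 group, 2.05 in the OAS group, 1.85 in the restriction factors, 1.30 in the sensors, 0.85 in the PARP9 group and 0.08 in the GBP group. DKI replicate 2 exceeded DKI replicate 1 by a median of 0.72, in 39 of the 40 genes (53.2% of all genes), and by 1 or more in 14 (2.8% of genes). In this second gap the GBP group was among the widest, with a median of 1.13, beside 1.17 in the OAS group and 1.09 in the IFIT and ISG15 group. In 38 of the 40 genes WT replicate 1 was above WT replicate 2 and DKI replicate 1 was below DKI replicate 2, as in 14.9% of all genes.

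**Figure D4:**
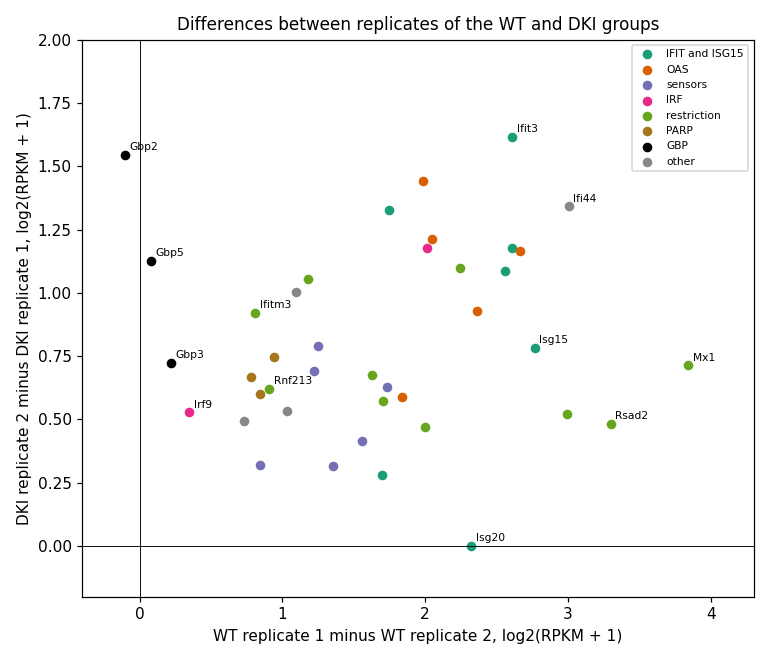
Difference in log2(RPKM + 1) between WT replicates 1 and 2 (horizontal) and between DKI replicates 2 and 1 (vertical), 1 point per gene, colored by role. Gbp2, Gbp3 and Gbp5 lie between -0.10 and 0.22 horizontally and reach 1.54 vertically, while Mx1 reaches 3.84 horizontally.

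Markers of other cells moved with the WT gap in part. Summed monocyte markers were 171.9 and 82.7 in WT replicates 1 and 2 and 62.1 and 74.1 in DKI replicates 1 and 2, with 10, 10, 8 and 10 of 10 markers at an RPKM of at least 1 and none at 0. Each monocyte marker was higher in WT replicate 1 than in WT replicate 2, Ly6c2 by the most. Ly6c2, the highest of the list in WT replicate 1, stood at 5.79, 3.13, 2.08 and 3.84 in the same order of libraries. Ccr2, Cd14 and Cd68 were lower in DKI replicate 2 than in DKI replicate 1, and the rest were higher. Plasmacytoid dendritic cell markers summed to 19.1, 15.8, 11.5 and 13.2, with 4, 4, 3 and 3 of 8 at an RPKM of at least 1 and Klk1 at 0 in WT replicate 1 and DKI replicate 2. In WT replicate 1, Siglech, Ccr9, Spib and Klk1 were lower than in WT replicate 2, and Cox6a2, Pacsin1, Tcf4 and Ly6d were higher. Of the natural killer cell markers, Gzma, Klrk1 and Eomes were higher in WT replicate 1 than in WT replicate 2. Gzma differed most, at 6.15 and 4.89. Prf1 (4.75 and 4.95), Ncr1 and Klrb1c were lower, and Klra8 and Klra4 were at 0 in both. The summed RPKM of this list was higher in WT replicate 1, at 106.1 and 67.21. Sums went the other way for neutrophil (14.8 and 20.01), B cell (11.51 and 16.45), conventional dendritic cell (173.6 and 195) and microglial markers (33.94 and 43.34). The part of these markers in the result was not tested. T cell markers summed to 2530, 2617, 2657 and 2536, in no such order. Of these 4 libraries, Ifnb1 was read in WT replicate 1, at a level of 0.19, and Ifng stood at 9.23, 8.32, 8.6 and 8.8.

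Of 71 pathway genes tested, 0 passed an adjusted p of 0.05 by limma, 58 were below 0, and 19 were lower and 3 higher at an unadjusted p of 0.05. Ifnar1 stood at 5.13, 5.12, 4.68 and 4.93 and Ifnar2 at 4.75, 4.58, 4.1 and 4.34, with both DKI libraries below both WT libraries and differences of -0.32 (SE 0.10, limma adjusted p = 0.174) and -0.45 (SE 0.13, limma adjusted p = 0.171). Stat2 stood at 7.51, 6.12, 5.46 and 6.19, Ifngr1 at 8.21, 8.59, 8.02 and 8.57 and Socs1 at 5.91, 5.89, 5.56 and 5.74. WT replicate 1 was the highest for Stat2 and Socs1 and not for Ifngr1. Among further interferon-stimulated genes, Sp100 (-0.86), Lgals9 (-0.75) and Slfn5 (-1.66) were lower and Ifitm2 (1.10) higher, with limma adjusted p of 0.169, 0.202, 0.208 and 0.163.

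The second set of DKI cultures gave a further view of the same genotype. Between DKI without CCL17 in that set and the first DKI pair, limma called 3823 of 11507 genes (33.2%), 15.4% higher and 17.8% lower. Of the 40 members 0 were higher and 1 was lower, below the background. The set of cultures and the group cannot be told apart, and the summed monocyte, B cell and neutrophil markers differed with it (neutrophil sums of 4.26 and 8.61 in DKI against 377.1 to 673.5). This comparison shares the DKI libraries with DKI against WT.

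The gene called was Irf9, with a difference of -0.59 (SE 0.18, limma adjusted p = 0.0370), at 5.47 and 6.00 in the first DKI pair and 4.93, 5.32 and 5.18 in the second set. It lost the call without a filter on low values (adjusted p = 0.0509), with only these 5 libraries (adjusted p = 0.0850), and without DKI replicate 2 or without replicate 1 or 3 of the second set (adjusted p = 0.223, 0.0928 and 0.0800). Oas2, at 4.12 and 5.33 against 2.04, 3.39 and 2.99, was next, with a difference of -1.92 (SE 0.65, limma adjusted p = 0.0526). Zbp1, Parp9 and Adar followed with differences of -1.10, -0.62 and -0.59 (limma adjusted p = 0.0570, 0.0837 and 0.0840). Rsad2 was the 1 member wholly above the first pair, at 2.05 and 2.54 against 3.12, 4.21 and 4.09 (difference 1.51, SE 0.82, limma adjusted p = 0.191), which 26.0% of genes were. In 16 members the second set lay wholly below the first pair, as did 29.6% of genes. The 11 pathway genes called lower included Ifnar1 (-0.51, limma adjusted p = 0.00338), Ifngr1 (-0.95, 0.0158), Jak1 (-0.52, 0.00712), Irf3 (-0.61, 0.00101), Ikbke (-1.42, 0.000208) and Gbp4 (-1.37, 0.0132). Irf8 (1.22, 0.0109) and Il10rb (0.38, 0.0328) were among the 4 called higher, of 74 tested.

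The last comparison asked whether CCL17, added while DKI cells expanded, alters these genes. With limma, 0 of 11297 genes passed an adjusted p of 0.05 (0.0%), and 239 were higher (2.12%) and 172 lower (1.52%) at an unadjusted p of 0.05, none of them a member. The median difference of the members was -0.01, with 17 above 0 and 23 below (54.2% of genes), and the members ranged from -0.27 for Rsad2 to 0.48 for Rnf213. With the replicate number as a block, 2 genes were called and 0 of the members.

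The levels below give replicates 1, 2 and 3 without CCL17 and then with it. Isg15 stood at 4.98, 6.29 and 6.13 without and 4.91, 5.9 and 5.99 with CCL17, a difference of -0.20 (SE 0.43, limma adjusted p = 0.999). Rsad2 stood at 3.12, 4.21 and 4.09 without and 2.89, 3.92 and 3.81 with CCL17, Ifit1 at 3.56, 4.39 and 4.28 without and 3.6, 4.33 and 4.35 with CCL17 and Usp18 at 3.28, 4.43 and 4.34 without and 3.47, 4.21 and 4.28 with CCL17. With the replicate block the SE of Rsad2, whose difference was -0.27, was 0.057 (limma adjusted p = 0.151). The groups overlapped in all 4 genes, and replicate 1 was the lowest of both groups in each. Oas2 stood at 2.04, 3.39 and 2.99 without and 2.41, 3.4 and 3.28 with CCL17, Oas3 at 4.57, 5.02 and 4.95 without and 4.58, 5.08 and 5.07 with CCL17 and Oasl1 at 2.27, 3.05 and 3.03 without and 2.45, 2.94 and 2.77 with CCL17. These overlapped too, with the same replicate lowest.

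Among regulators and sensors the picture was alike. Irf7 stood at 5.48, 6.54 and 6.45 without and 5.47, 6.29 and 6.24 with CCL17 and Irf9 at 4.93, 5.32 and 5.18 without and 4.96, 5.19 and 5.17 with CCL17. Zbp1 stood at 5.5, 6.11 and 6.05 without and 5.56, 6.07 and 6.03 with CCL17. The difference of Zbp1 was -0.0004, with a standard error of 0.21. Ddx58 stood at 4.33, 4.69 and 4.55 without and 4.52, 4.63 and 4.62 with CCL17, Dhx58 at 3.47, 3.99 and 3.91 without and 3.49, 3.97 and 3.88 with CCL17 and Adar at 4.84, 5.12 and 5.09 without and 4.88, 5.15 and 5.22 with CCL17. None of these genes separated the groups.

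Restriction factors held the 2 smallest p. Ifitm3 stood at 8.1, 8.08 and 8.03 without and 8.01, 7.83 and 7.9 with CCL17, so the 3 libraries with CCL17 lay below the 3 without, a difference of -0.16 (SE 0.07, limma adjusted p = 0.999). It was the 1 member whose groups did not overlap, against 4.28% of genes lying wholly below and 5.2% wholly above. Rnf213 stood at 5.35, 5.69 and 5.7 without and 5.56, 6.35 and 6.28 with CCL17, higher with CCL17 by 0.21, 0.65 and 0.58 in the 3 pairs of one number, a fitted difference of 0.48 (SE 0.22, limma adjusted p = 0.999). With the replicate block its standard error was 0.083 and its adjusted p 0.119. Bst2 stood at 6.66, 7.13 and 6.98 without and 6.68, 6.9 and 6.91 with CCL17, and Cmpk2 at 2.56, 2.76 and 2.63 without and 2.38, 2.77 and 2.55 with CCL17, both overlapping.

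Of the rest, Parp9 stood at 5.24, 5.42 and 5.44 without and 5.22, 5.43 and 5.41 with CCL17, Dtx3l at 5.58, 5.81 and 5.82 without and 5.53, 5.86 and 5.84 with CCL17 and Parp14 at 5.18, 5.5 and 5.45 without and 5.13, 5.73 and 5.65 with CCL17. Parp14 differed by 0.13 (SE 0.17). Gbp2 stood at 5.92, 6.46 and 6.47 without and 5.84, 6.38 and 6.19 with CCL17, Gbp3 at 4.84, 5.08 and 4.91 without and 4.85, 4.92 and 4.91 with CCL17 and Gbp5 at 4.94, 5.29 and 5.32 without and 4.86, 5.35 and 5.29 with CCL17. Gbp2 was lower with CCL17 in all 3 pairs, by differences from -0.08 to -0.28, a fitted difference of -0.15 with an SE of 0.19, or of 0.051 with the replicate block (limma adjusted p = 0.296). Rtp4 stood at 4.26, 5.25 and 5.05 without and 4.47, 5.09 and 4.92 with CCL17 and Ifi44 at 1.5, 2.41 and 2.44 without and 1.27, 2.52 and 2.36 with CCL17. Over the 3 pairs of one number, 6 members were above in every pair and 5 below in every pair, against 16.6% and 19.6% of genes.

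Replicate 1 stood lower than its companions whether or not CCL17 was added. It was the lowest of its group in 38 of the 40 members without CCL17 (45.8% of genes) and in 37 with it (44.8%), and in 37 it was the lowest in both (33.4%). In 12 members it was lower than each companion by 0.5 or more in both groups, against 4.38% of genes. The mean of replicates 2 and 3 exceeded replicate 1 by a median of 0.49 without and 0.44 with CCL17, most in the OAS group (0.99 and 0.73) and least in the PARP9 group (0.24 and 0.31). Neutrophil markers summed to 673.5 in replicate 1 against 377.1 and 411.0 in replicates 2 and 3 without CCL17, and to 923.1 against 369.7 and 360.6 with it. Monocyte markers went the other way, at 716.1 against 1062 and 1083, and 693.6 against 858.7 and 886.6. Their part in the result was not tested.

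**Figure D5:**
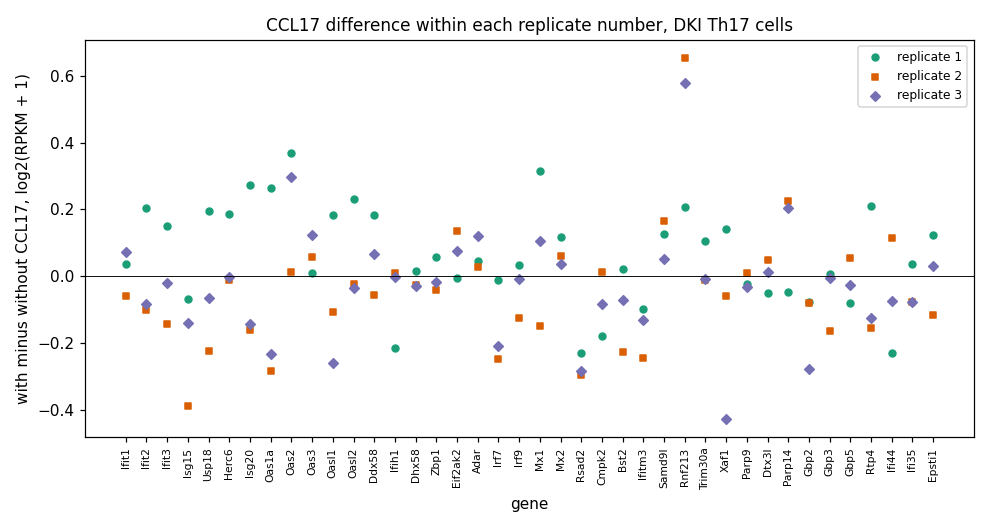
Difference in log2(RPKM + 1) between libraries with and without CCL17 of the same replicate number, for each gene and each of the 3 numbers. Rnf213 reaches 0.65 and 0.58 in replicates 2 and 3, and Ifitm3 lies below 0 in all 3.

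Interferon genes themselves did not separate the CCL17 groups. Ifng stood at 8.64, 9.35 and 9.21 without and 8.09, 9.1 and 9.11 with CCL17 and was lowest in replicate 1 of each group. Ifnb1 stood at 0.0, 0.25 and 0.24 without and 0.0, 0.22 and 0.54 with CCL17, near the floor of the table. Stat2 stood at 4.25, 5.0 and 4.87 without and 4.41, 5.0 and 4.97 with CCL17 and Socs1 at 5.37, 5.48 and 5.43 without and 5.18, 5.33 and 5.48 with CCL17. Ifnar1 stood at 4.22, 4.32 and 4.33 without and 4.31, 4.35 and 4.35 with CCL17, Ifnar2 at 4.39, 4.62 and 4.65 without and 4.34, 4.58 and 4.52 with CCL17 and Ifngr1 at 7.64, 7.21 and 7.19 without and 7.65, 7.13 and 7.16 with CCL17. The largest of these differences was that of Ifng, -0.30 (SE 0.32, limma adjusted p = 0.999), with an SE of 0.079 under the replicate block (limma adjusted p = 0.211).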

How the data were processed

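RNA of the 3 myeloid and 10 Th17 libraries was sequenced after KAPA mRNA HyperPrep preparation, per the labels' protocols. Subread, featureCounts and mm10 are named in the submitters' processing notes, while versions, annotation and strand setting are not given in the sources used here. As deposited by the authors, each gene's value is log2(RPKM + 1). The log base 2 and the pseudocount of 1 were settled from the values: on that base the length-weighted RPKM of a library summed to between 1029670 and 1071110, near the total that RPKM implies. Values of 0.0001 stand for no reads. Depth was estimated from the steps of low RPKM values, as the depth at which most of them came within 0.1 of a whole read. At the depth chosen, 74.7 to 76.7% did so. Chance gives 20% at a fixed depth, which is not the chance value for a depth chosen this way. With a share of 74.7 to 76.7%, no count model was fitted. The estimated reads served for counting intervals between single libraries and for comparing replicates, and both are approximate. The column used for cord APCs carries another abbreviation and was matched as the single sample and column left.

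Gene IDs were matched to RefSeq symbols of GRCm38.p6 (20857 of 21073). The 40 members and all lists were chosen with earlier results of these data known. Fits used limma 3.58.1 in R 4.3.3 with a mean-variance trend, on genes with an RPKM of at least 1 in at least 2 libraries (3 for CCL17), with Benjamini-Hochberg adjustment over all genes tested. DKI against WT and the 2 DKI sets were fitted on all 10 Th17 libraries, and CCL17 on its 6. Genes given with values in every library are a fixed list of 13, the 5 largest differences of each myeloid comparison and the 5 smallest p of each Th17 comparison. Of the other lists, up to 4 per list were eligible by the same measures, plus fixed pathway genes. Simulated data took each gene's spread from all 10 Th17 libraries, made it equal in every group and let genes vary independently. On these, the DKI against WT fit recovered 78% of genes moved by 1 and 95% of those moved by 2 (log2), among 11323 genes. Shifts that the members share between replicates were not simulated, so these shares do not give the power for the members. Replicate libraries of the CCL17 set with 1 number deviated together (correlations of 0.774, 0.509 and 0.525), though replicates 2 and 3 also did so across numbers (0.503 and 0.533). Replicates 2 and 3 of each group had a mean chi-square per gene of 2.26 and 2.43 on the estimated reads, where counting noise alone gives about 1. The pairs with replicate 1 of that set had 26.85 to 29.85, the WT pair 62.68 and the DKI pair 92.39. Replicates 2 and 3 were thus far more alike than any other pair, yet were counted as 2 libraries. Tests and counts over the 3 CCL17 replicates may therefore rest on fewer than 3 independent units.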

Additional observations from a re-analysis of the deposited data

How the results depend on the processing

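Over 174 alternative values of the main results, 141 met a loose rule for staying the same. Counts could change by a fixed factor, and 0 against 0 counted as the same. Myeloid medians could move by the margin of a counting interval, and Th17 medians by the spread of library medians. That spread was 0.81 in DKI against WT, so the median of -0.34 without WT replicate 1 also counted as the same. In the myeloid comparisons the median difference of cord against marrow monocytes was 1.46 with a pseudocount of 0.1 and 1.59 after centring libraries on the median gene. Centring gave a median of -0.84 for APCs against cord monocytes and 0.80 for APCs against marrow monocytes, with 1 member 2-fold lower in the latter. At 4-fold, 12 members were higher in cord than in marrow monocytes, 0 were lower in APCs than in cord monocytes, and 7 were higher and 0 lower in APCs than in marrow monocytes.

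In DKI against WT, quantile normalization called 7 genes and 0 members. By their labels, WT and DKI libraries share numbers only, though over all genes tested those of 1 number deviated together (correlation of 0.455). The members did not, since in 38 of the 40 the replicates stood in opposite order in WT and DKI. With the replicate block 1 member (Rnf213) and 1281 genes were called. Leaving out 1 library gave 0 to 15 members called lower, 0 to 580 genes called and medians from -1.90 to -0.34, with Bst2 at -1.90 to 0.10, Gbp2 at -1.11 to 0.43 and Ifitm3 at -0.055 to 0.87. A group left with 1 library was assumed to vary like the others.

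For the 2 DKI sets, the members called lower were 0 without a filter on low values, 3 with quantile normalization, 3 with centring, and 2 with only the libraries compared, which also called 1 member higher and 2423 genes. Leaving out 1 library gave 0 to 8 members called lower, 0 to 1 higher, 2513 to 3526 genes and medians from -0.82 to -0.016. For CCL17, the replicate block called 2 genes and changed no member's call, and leaving out 1 library gave medians from -0.17 to 0.15, with Isg15 at -0.61 to 0.15, Gbp2 at -0.33 to 0.0016 and Gbp3 at -0.11 to 0.014. The causes of these shifts were not tested. The counting intervals given for the myeloid comparisons were narrow, but Ifi44 had few estimated reads in the marrow and Ifnb1 and Ifng had none there. These comparisons rest on 1 library per group, and DKI against WT on 2 libraries per group.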
